A study of Mus musculus with 9 samples.

Results

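HOXA13 and HOXD13 are the most posterior homeodomain transcription factors of the HoxA and HoxD clusters, and they are expressed in the cells that form the hand plate and digits. Most of their known action in the limb goes through enhancers, which can lie far from the gene they act on, and both proteins recognise a related DNA sequence ending in TAAA. The sites described here are the distal sites that HOXA13 and HOXD13 CUT&RUN found in every wild-type library. In CUT&RUN an antibody brings a nuclease to the protein of interest, and the DNA fragments cut free around it are sequenced.

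The intervals of the 6 wild-type (wt) peak lists were merged wherever they shared at least 1 bp, which gave 138528 merged sites. Shared distal sites were defined by a call in all 6 lists and by a midpoint 10 to 200 kb from the nearest start of a protein-coding transcript. There were 6889 of them. Of the 81673 merged sites in this range of distances, 8.43% were in all 6 lists, and 13916 merged sites at any distance were. The call in each list chose these sites, so their height in the wt lists is given as a description.

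The samples were distal forelimbs of B6CBAF1 mouse embryos that received no treatment, collected at E12.5 for 3 wt HOXA13 and 3 wt HOXD13 libraries. Embryos of the II1 T-DOM 542 line (542), homozygous for a copy of the limb enhancer II1 that was inserted with a promoter and the lacZ reporter into the telomeric regulatory domain of HoxD (T-DOM), gave 3 more. Of these, 2 were HOXA13 at E12.5 and 1 was HOXD13 with the label E11.5, although the labels describe a single day of collection for all samples. Tissue of several embryos was pooled for a library, and 542 is a single inserted allele. The lists held 23939 intervals (wt HOXD13 replicate 1) to 117719 intervals (542 HOXD13), from 36.9 to 65.5 M read ends as recovered from the peak values. In wt HOXD13 replicate 1 the shared distal sites took up 30.7% of all intervals, and in 542 HOXD13 5.32%. Both wt replicates 3 have peak names in a different scheme from the other wt lists, and wt HOXD13 replicate 3 is labelled as a re-analysis of an earlier library. Peak lists hold no expression values, so the labelled tissue could not be compared with marker genes.

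To show what a shared distal site looks like, the sequence around the summit is printed for 6 of them. These were the highest-ranked of the 76 sites at which the 6 wt summits lay within 100 bp of each other and each summit window held the HOX13 consensus. The consensus was CCNATAAA, CTNATAAA, CCNGTAAA or CTNGTAAA on either strand, and capitals mark every match. Each line gives the plus strand of RefSeq's GRCm38 (mm10) from 60 bp before to 60 bp after the median summit.
Site near Lrrc75b, chr10:75548594-75548714: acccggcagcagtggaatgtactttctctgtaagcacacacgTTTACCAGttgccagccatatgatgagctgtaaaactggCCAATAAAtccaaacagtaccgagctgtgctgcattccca
Site near Parp16 in Igdcc3, chr9:65169915-65170035: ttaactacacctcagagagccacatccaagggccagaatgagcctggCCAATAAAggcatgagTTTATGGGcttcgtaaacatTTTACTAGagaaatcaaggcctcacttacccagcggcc
Site near St7, chr6:17835888-17836008: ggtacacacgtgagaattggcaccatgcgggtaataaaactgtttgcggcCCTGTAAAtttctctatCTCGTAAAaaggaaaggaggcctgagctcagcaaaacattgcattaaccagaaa
Site near Prox1, chr1:190347748-190347868: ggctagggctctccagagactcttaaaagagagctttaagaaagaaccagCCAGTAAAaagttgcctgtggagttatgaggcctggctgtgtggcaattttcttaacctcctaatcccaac
Site near 9930104L06Rik, chr4:124950726-124950846: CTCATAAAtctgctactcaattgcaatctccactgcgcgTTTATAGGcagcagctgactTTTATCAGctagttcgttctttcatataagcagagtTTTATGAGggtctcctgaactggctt
Site near Rbm20, chr19:53654248-53654368: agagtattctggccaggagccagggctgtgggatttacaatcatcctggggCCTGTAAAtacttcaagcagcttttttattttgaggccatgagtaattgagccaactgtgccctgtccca

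These sequences held 1 to 4 matches each, and the matches lay on both strands. The site near 9930104L06Rik held 4, the site near Parp16 held 3, and the sites near Prox1 and Rbm20 held 1. Fold enrichment, the ratio of the pileup at the summit to the local background that the authors deposited, was 20.3, 19.9 and 10.4 in wt HOXA13 replicates 1, 2 and 3 at the Parp16 site, and 11.2, 14.0 and 6.21 in wt HOXD13. In the 542 lists the same site reached 17.2 and 18.4 with HOXA13 and 13.8 with HOXD13. At the Rbm20 site, where the 6 wt summits fell within 8 bp, fold enrichment was 16.2, 13.3 and 8.32 with HOXA13 and 8.70, 12.2 and 7.26 with HOXD13.

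The question of which sequence the shared distal sites have in common was asked first of the HOX13 consensus, which the rule did not use. It was present in 16.5% ± 2.89 (SD, n = 6 wt libraries) of the 50-bp windows around the main summits of the shared distal sites. At distal sites called in the same library but not in all 6 lists it was present in 9.92% ± 2.48, a difference of 6.60 percentage points, and it was higher in 6 of 6 libraries (two-sided exact sign-flip permutation test over libraries, p = 0.03125, the smallest this test can give). The share of shared distal sites was 19.2%, 19.6% and 14.6% in wt HOXA13 replicates 1 to 3 and 16.6%, 17.1% and 11.9% in wt HOXD13, and the values of the antibodies overlapped. Shared sites over 200 kb from a start held it as often, in 16.6% ± 2.96 (SD, n = 6), so that this is not particular to sites at 10 to 200 kb. Those under 10 kb held it in 8.01% ± 1.04. GC content of the windows was 41.4% at shared distal sites, 43.3% at other distal summits and 55.2% at shared sites under 10 kb. It was lower at shared distal sites than at other distal summits in 4 of 6 libraries. The part of GC content in these differences was not tested. Libraries read the same sequences, so the test covers the spread between libraries only.

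The enrichment was local. Windows 1000 bp to either side of the same summits held the consensus in 2.29% ± 0.108 (SD, n = 6), which was 14.2 percentage points lower, again in 6 of 6 libraries (exact sign-flip permutation p = 0.03125). Counted in bins of 25 bp, matches per 1000 shared distal sites rose to 114 and 110 in the bins on either side of the summit and were 15.7 and 14.2 in the outermost bins, 475 to 500 bp away. Over a 300-bp window around the median summit 48.8% of shared distal sites held the consensus, against 10.3% of 32851 RefSeq promoters of the same length on GRCm38. The consensus is rich in A and T, and base composition was not matched to the promoters or the flanks. GC content was 43.8% at the flanks and 41.4% at the summits. The part of base composition was not tested. Anywhere in the merged site, a median of 1114 bp wide, it was found at 73.1% of shared distal sites, and 38.6% held at least 2 matches. No background was counted for windows of that width, and the outermost bins above still held matches. Within the summit windows, 60.1% of shared distal sites held none in any library. The study had itself looked for HOX13 motifs in the peaks of both replicates 3, so those libraries are not independent of the choice of motif.

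**Figure D1:**
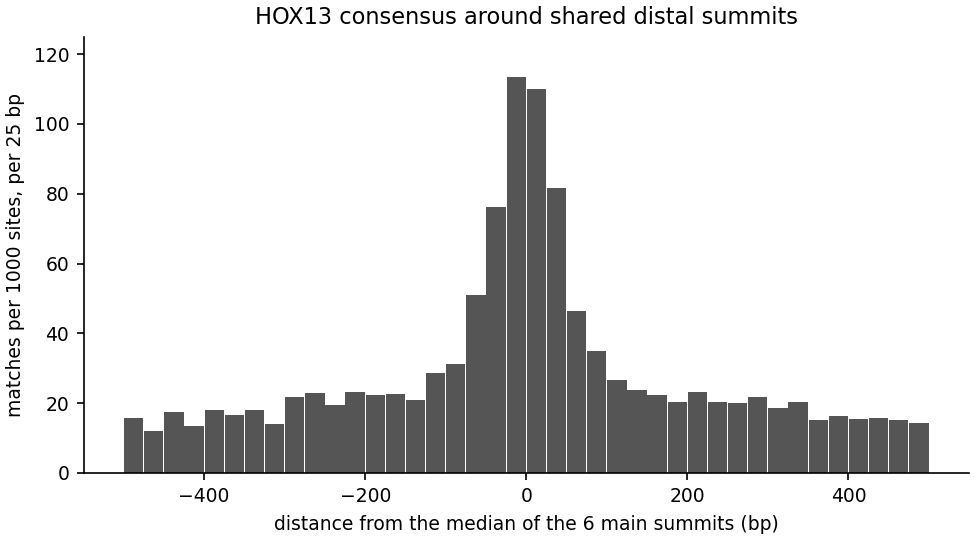
Matches of the HOX13 consensus per 1000 shared distal sites (y axis, per 25-bp bin) against distance in bp from the median of the 6 main summits (x axis). Bars are highest beside the summit, at 114 and 110, and fall to 15.7 and 14.2 at the edges.

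Other motifs fell on either side. The homeodomain core TAATTA was, like the HOX13 consensus, higher in 6 of 6 libraries, in 4.14% ± 0.496 (SD, n = 6) of summit windows of shared distal sites against 3.32% ± 0.701 of other distal summits and 1.63% ± 0.0965 of flanks. CTCF was in 0.322% ± 0.0671 of shared distal summits and 0.0266% ± 0.00992 of flanks, higher in 6 of 6 libraries, but in 0.669% ± 0.523 of other distal summits, lower in 4 of 6. TGACAG, bound by the MEIS cofactors of HOX proteins, was less frequent at the summits (2.43% ± 0.218) than at the flanks (3.30% ± 0.185) and than at other distal summits (3.04% ± 0.310), lower in 6 of 6 libraries in each case. The GLI site TGGGTGG, read by the effectors of hedgehog signalling, was at 0.583% ± 0.0808 of summits and 1.02% ± 0.0628 of flanks. The SOX site ACAATGG was at 0.448% ± 0.0444 and 0.710% ± 0.0441. The AP-1 site TGANTCA differed little, at 1.49% ± 0.127 of shared distal summits and 1.46% ± 0.0535 of other distal summits, higher in 4 of 6 libraries. The ETS site CCGGAAG was at 0.162% ± 0.0472 here but at 2.12% ± 0.176 of shared sites under 10 kb from a start. CATCTG (E-box) was at 3.69% ± 0.227 of shared distal summits, 4.07% ± 0.498 of other distal summits and 3.64% ± 0.161 of flanks, and CTTTGAT (TCF/LEF) at 0.738% ± 0.137, 0.804% ± 0.0641 and 0.802% ± 0.0626. These other motifs are a description and were not tested.

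The share with the consensus was higher in each wt library at distal sites of all 6 lists than at those of 1 list. It went from 8.95% to 19.2%, 3.09% to 19.6% and 6.16% to 14.6% in wt HOXA13 replicates 1 to 3 and from 4.11% to 16.6%, 2.38% to 17.1% and 3.49% to 11.9% in wt HOXD13. Between them it rose at each further list except in wt HOXA13 replicate 2 from 4 to 5 lists (16.57% to 16.0%) and in wt HOXD13 replicate 3 from 3 to 4 (6.35% to 6.30%). In the 542 libraries, which had no part in the rule, 22.1% and 21.3% (HOXA13) and 19.2% (HOXD13) of the summit windows at shared distal sites held it, against 20.1%, 18.6% and 17.5% at distal sites of 5 wt lists and 17.8%, 17.0% and 13.1% at those of 1 list. In wt, against distal sites called in exactly 5 lists the shared distal sites were 2.62 percentage points higher, in 6 of 6 libraries (exact sign-flip permutation p = 0.03125). Within the shared distal sites it also rose with rank. Ranked by the median over the wt libraries of their percentile of fold enrichment within each list, the lowest of 4 equal groups had the consensus in 11.8% ± 2.62 (SD, n = 6) of windows and the highest in 22.3% ± 3.33. These groups were made from the wt values, so this is a description.

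**Figure D2:**
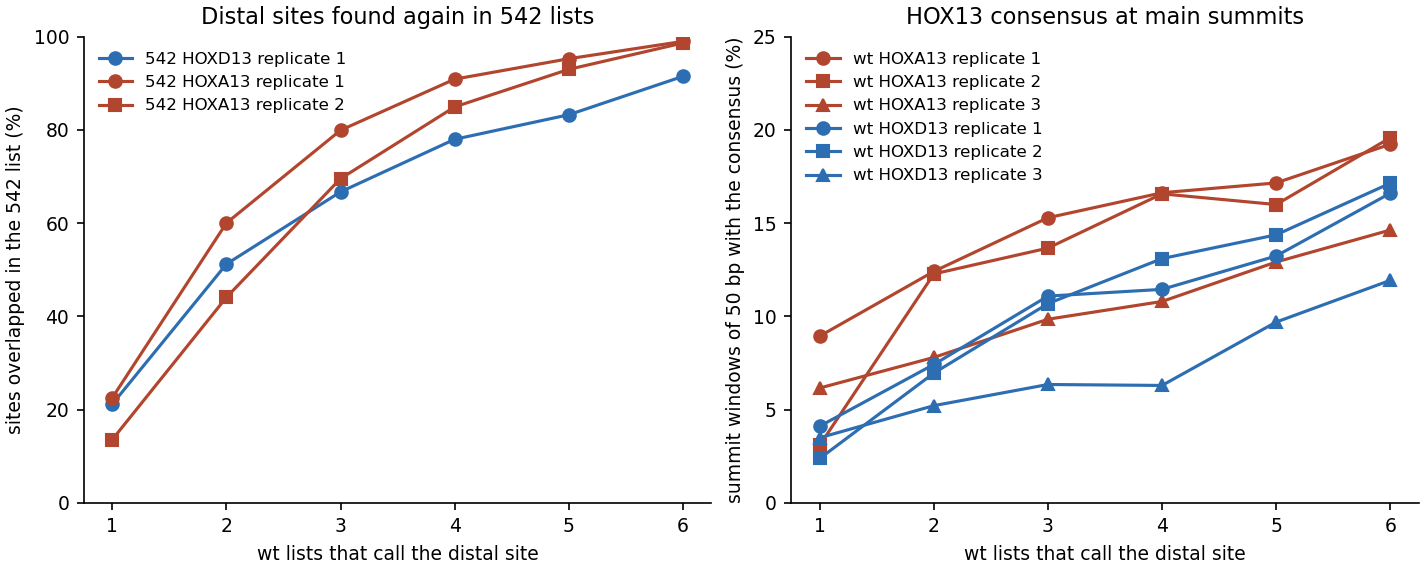
Left, percent of distal merged sites overlapped in each 542 list (y axis) by the number of wt lists that call the site (x axis); right, percent of 50-bp summit windows with the HOX13 consensus in each wt library. Points are single libraries, HOXA13 in red and HOXD13 in blue, and 6 lists are the shared distal sites, which reached 91.5% to 99.0% on the left and 11.9% to 19.6% on the right.

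The shared distal sites lay a median of 54750 bp from the nearest start and were a median of 1114 bp wide (308 to 4184 bp). Introns of protein-coding genes held 51.6% of them, and 77.4% of these introns belonged to the gene with the nearest start. A further 40.1% were intergenic, 6.65% lay in noncoding genes and 1.61% in exons. Main summits of the 6 libraries spanned a median of 244 bp, and at 23.9% of sites they fell within 100 bp. GC content around the summit was 41.4% ± 0.811 (SD, n = 6), against 55.2% ± 1.24 for shared sites under 10 kb. Repeats masked in the assembly covered more than 50% of the 60 bp to either side of the summit at 2.44% of shared distal sites and at 1.39% of the shared sites under 10 kb.

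At the bounds of the rule, the closest sites inside 10 kb lay 10004 bp from Baz1a and 10019 bp from Bcl2l1 with median percentiles of 88.7 and 67.0, and the closest outside lay 9998 bp from Cdc42ep4 and 9994 bp from Stat4 with 43.3 and 85.4. At the far bound the sites inside lay 199977 bp from Tbx2 and 199970 bp from Pcdh18, with 97.0 and 86.9, and those outside lay 200111 bp from Adamts6 and 200160 bp from Fzd1, with 90.3 and 80.9. Values did not change in one direction across either bound.

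The 10 shared distal sites with the highest median percentile differed in width. The top 3 were narrow and held no match of the consensus in the whole merged site. The highest was 323 bp wide, in an intron of Chl1, a neural cell adhesion molecule, at chr6:103649068-103649390. Its fold enrichment was 5.64, 21.9 and 23.8 in wt HOXA13 replicates 1 to 3 and 36.1, 28.7 and 27.9 in wt HOXD13, so that 1 HOXA13 library stood far below the other values. The site near Ly6c2, 524 bp wide at chr15:75086552-75087075, ranged from 17.97 to 21.6 over the wt libraries, with no separation of the antibodies. The third, near Gm8797 at chr3:5860254-5860894, was 641 bp wide and ranged from 13.0 to 19.9.

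The other 7 each held 1 to 3 matches of the consensus and were 879 to 1628 bp wide. They lay near Lrrc75b, Ccdc169, Cdv3, Rgs9, Tfcp2l1, Lsamp and Parp16. In every one of these 7 the lowest wt value came from a library numbered 3 or from wt HOXD13 replicate 1. At the site 32.9 kb upstream of Cdv3, chr9:103398262-103399140, wt HOXA13 gave 25.5, 21.4 and 7.03 and wt HOXD13 gave 12.1, 17.4 and 8.04. The site in an intron of Lsamp, another neural adhesion gene, gave 18.01, 18.3 and 10.3 with HOXA13 and 6.74, 14.1 and 9.10 with HOXD13. All 10 were called in all 3 of the 542 lists.

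**Figure D3:**
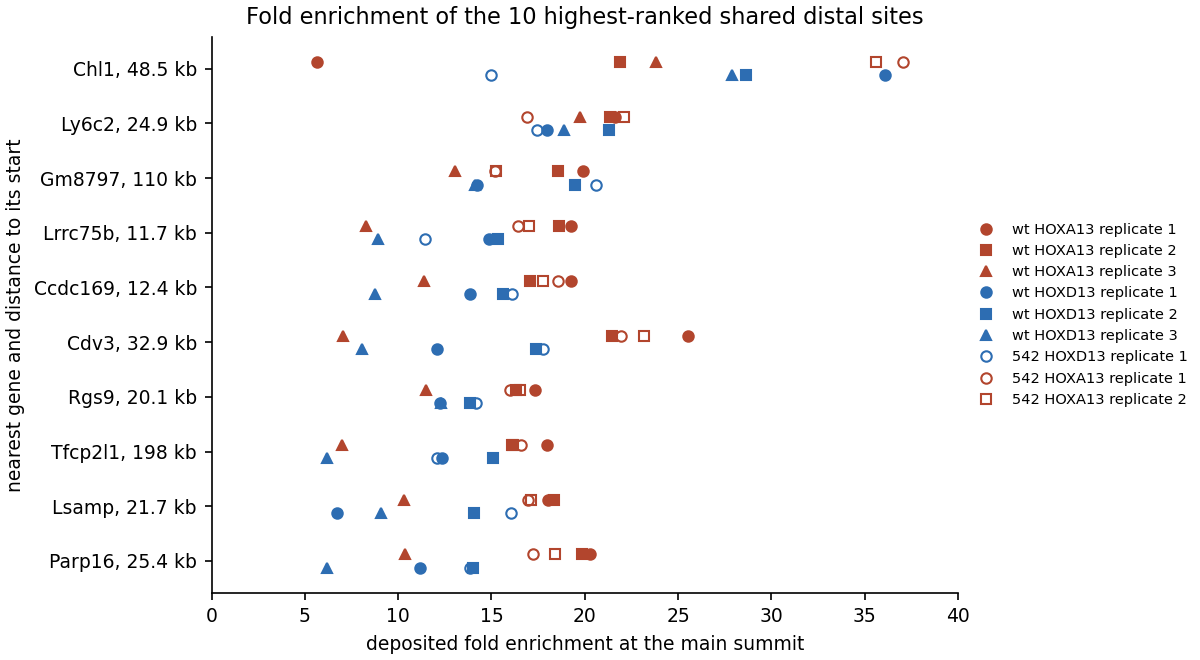
Deposited fold enrichment (x axis) of the 10 highest-ranked shared distal sites, named by nearest gene and distance to its start (y axis). Each point is 1 library, HOXA13 in red and HOXD13 in blue, filled for wt and open for 542; the Chl1 site spans 5.64 to 37.0 and libraries numbered 3 (triangles) lie low at the sites near Cdv3, Tfcp2l1 and Parp16.

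The nearest genes were counted next. At least 1 shared distal site was nearest to 3658 of 21827 protein-coding genes (16.8%), of which 2126 had a single site and 215 had 5 or more. Those 215 genes took 20.3% of the shared distal sites. Mecom, a zinc finger transcription factor expressed in limb mesenchyme, had the most with 20, from 10.0 to 185 kb from its start. The kinase receptor gene Bmpr1b, required for digit cartilage, and Tcf7l2, a transcription factor of the Wnt pathway, had 17 each. The homeobox gene Zfhx3 and the neurodevelopmental gene Auts2 had 15, and Dlc1, which encodes a GTPase-activating protein, had 14. Lrig3 and Frmd4a had 13, 4930558K02Rik and the hedgehog co-receptor gene Gas1 had 12, and Gmds and Rasgef1b had 11.

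A large gene or an isolated one has more sequence to be nearest to. Per 100 kb of the sequence that lies 10 to 200 kb from a start and is nearest to the gene, all protein-coding genes together had 0.451 shared distal sites. The 12 genes above had 1.33 (Auts2) to 8.11 (4930558K02Rik), with 3.02 at Mecom, 3.48 at Bmpr1b, 3.34 at Tcf7l2 and 3.36 at Gas1. The sites of Tcf7l2 and Gas1 also ranked high, with a median percentile of 92.9 and 91.5, while those of 4930558K02Rik and Gmds stood at 72.1 and 72.1.

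Among lists of genes with a known role, limb transcription factors had the most shared distal sites by count. Of 25 such genes 19 were nearest to at least 1, with 73 sites in all, 20 of them at Mecom, and 1.51 per 100 kb. Per 100 kb the posterior Hox genes, described below, stood higher at 2.77. Apart from Mecom these included Tbx5, which starts the forelimb, with 7 sites, Hand2, which sets up posterior polarity, with 6, and the dorsal selector Lmx1b with 5. The remaining 15 genes had 1 to 4 sites. Alx4, Dlx6, En1, Lhx2, Sall3 and Twist1 had none. The highest-ranked Hand2 site, at chr8:57214035-57215579 and 106 kb upstream of the gene, had a fold enrichment of 10.4, 12.2 and 8.34 with HOXA13 and 6.29, 7.61 and 6.59 with HOXD13 in wt. In 542 it had 12.4 and 11.51 with HOXA13 and 4.37 with HOXD13.

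Cartilage and joint genes had shared distal sites at 14 of 16 genes and 1.15 per 100 kb. Sox5, a partner of SOX9 in cartilage, had 11, the zinc finger gene Trps1 had 7, Sox6 had 6 and Erg, which marks joints, had 5. The best Sox5 site, in an intron 28.5 kb from a start at chr6:143918057-143919086, reached 17.4, 15.1 and 9.04 with HOXA13 and 6.92, 10.7 and 7.0 with HOXD13, so only the lowest HOXA13 library fell among the HOXD13 values. Sox9 itself, the master regulator of cartilage, had 2 sites, both over 183 kb from its start. All 8 proximal limb genes were nearest to at least 1 (1.10 per 100 kb), with 7 at Irx3, 5 at Irx5 and 4 at Pbx3. These encode homeodomain factors used in the upper part of the limb.

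Of 21 limb ligands and antagonists 13 had a shared distal site (1.01 per 100 kb). Bmp2, which signals in digit formation, and Wnt5a, which drives outgrowth, had 6 each, and Bmp5 and Dkk1 had 3 each. Shh and Rspo2, with 255 and 236 kb of distal sequence nearest to them, had none, nor did Fgf8, Fgf4, Wnt3 and Jag2, with 8.97 to 82.1 kb. Sites over 200 kb away, or nearer to the start of another gene, are not counted to these genes. Chrd and Gdf5 have no such sequence and could not be counted. The highest-ranked Bmp2 site, 14.5 kb downstream at chr2:133565851-133567527, gave 13.6, 12.0 and 7.20 with HOXA13 and 9.31, 11.3 and 6.47 with HOXD13, and the groups overlapped. Hedgehog receptors and effectors had sites at 4 of 8 genes (1.03 per 100 kb), with 6 at Gli3, 4 at the receptor Ptch1, 3 at the antagonist Hhip and 1 at Gli2.

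Posterior Hox genes and their Evx neighbours lie so close together that only 0.216 Mb of distal sequence is nearest to the 12 of them. They had 6 shared distal sites, 4 at Evx1 and 2 at Evx2, which gave 2.77 per 100 kb. Hoxa13 had none in 16.3 kb, and Hoxd13 has no distal sequence nearest to it. In the window chr2:74000001-75000000, 17 shared distal sites were counted to Atp5g3, Evx2, Lnpk and Mtx2. The Evx2 site at chr2:74618885-74620648 ranked at a median percentile of 93.8. Eph receptors and ephrins had sites at 8 of 20 genes (0.701 per 100 kb), led by Efna5 with 8 and Epha3 with 4, followed by Efnb2 and Epha4 with 2 each. Genes of retinoic acid metabolism and response had them at 5 of 12 (0.574 per 100 kb), with 3 at Cyp26b1, 2 at Aldh1a2 and 1 each at Cyp26a1 and Rdh10.

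Of the contrast lists only the forebrain list stood below all genes. Myogenic genes, whose cells enter the limb from the somites, had sites at 5 of 10 (0.676 per 100 kb over 1.33 Mb, above the retinoic acid list), with 4 at Mef2c, 2 at Pax3 and 1 at Pax7, and none at Myod1, Myf5 or Myog. Forebrain genes had them at 6 of 17 (0.229 per 100 kb), 1 each at genes including Dlx1, Dlx2, Nkx2-1 and Emx2. Ribosomal protein genes had 4 sites in all at 3 of 23 genes, 2 of them at Rps23 and 1 each at Rpl5 and Rpl14, and 0.806 per 100 kb over only 0.496 Mb. No list was tested against the others.

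**Figure D4:**
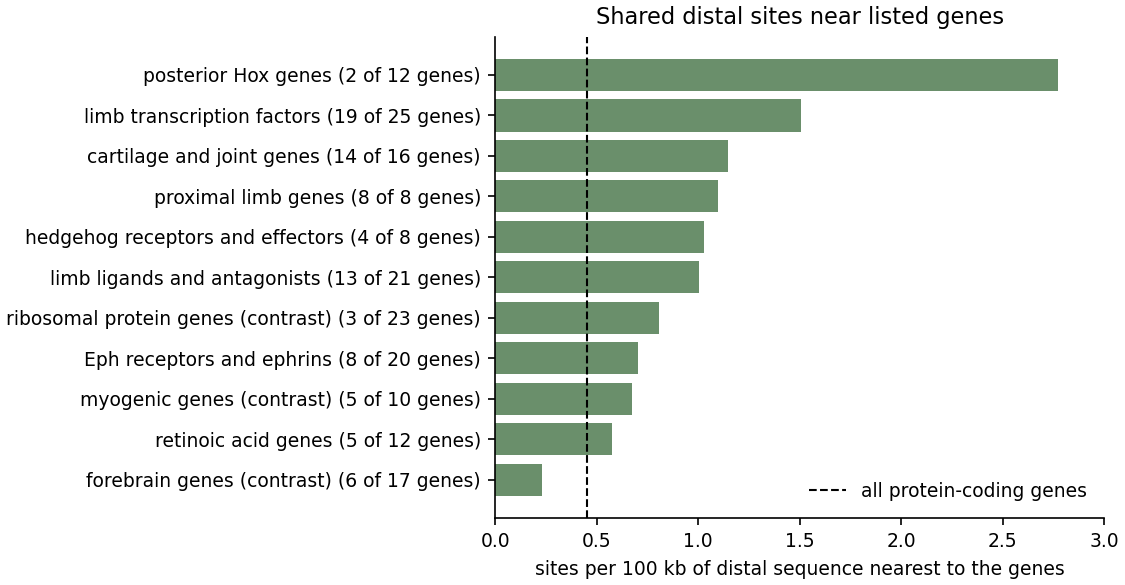
Shared distal sites per 100 kb of distal sequence nearest to the genes of each list (bars, x axis starting at 0), with the number of genes that have at least 1 site beside each list (y axis). The dashed line marks all protein-coding genes at 0.451; limb transcription factors stand at 1.51 and forebrain genes at 0.229.

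Positions along the chromosomes were compared next. Within 20 kb of another one were 29.4% of them, against 19.2% of the 5106 distal sites called in 5 lists and 23.2% of the 5095 shared sites under 10 kb, each measured among its own kind. The 5931 distal sites in 4 lists stood at 21.1%. The sets differ in size, and a larger set lies closer together for that alone, so that size and spacing cannot be told apart here. Linking sites at most 20 kb apart gave 882 groups of at least 2 sites, of which 188 had 3 or more, and 4864 sites stood alone.

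The largest groups had 6 sites each. The 5 highest-ranked of these lay near Tex14 on chromosome 11 (chr11:87422911-87472804), near Jun on chromosome 4 (chr4:95130004-95186366), near Bmpr1b on chromosome 3 (chr3:142013910-142061996), between Lmx1b and Mvb12b on chromosome 2 (chr2:33746259-33790336), and near 4930558K02Rik on chromosome 1 (chr1:161999618-162045031). The Tex14 group stood highest, with a median percentile of 91.8 and fold enrichments of 5.74 to 13.3 in wt HOXA13 replicate 1 and of 4.51 to 10.1 in wt HOXD13 replicate 1. All 6 of its sites, and all 6 near Jun, were in all 3 of the 542 lists, as were 5 of 6 near Bmpr1b. Over windows of 1 Mb, 63.8% held at least 1 shared distal site, and the fullest held 23, at 52 to 53 Mb of chromosome 6 between Skap2, Evx1 and Jazf1, beside the HoxA cluster. By length, autosomes had 2.01 (chromosome 7) to 3.35 (chromosome 6) sites per Mb and the X chromosome had 0.433.

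Whether these sites were found again in the 542 line used libraries that played no part in choosing them. Since 542 reads were mapped on a mutant genome, the part of chromosome 2 beyond the insertion was not compared, which kept 6617 shared distal sites. The 542 HOXA13 lists overlapped 99.0% (95% exact binomial interval 98.7 to 99.2) and 98.7% (98.3 to 98.9) of them, against 52.3% and 43.1% of all merged wt sites. The 542 HOXD13 list overlapped 91.5% (90.8 to 92.2), against 47.4% of all merged sites. The binomial intervals cover counting error only. Distal sites called in 5 wt lists stood much nearer, at 95.3% and 93.0% in the 542 HOXA13 lists and 83.3% in the 542 HOXD13 list. All 3 lists held 6015 sites and 35 sites were in none of them.

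The 542 HOXD13 list thus missed more of these sites although it was the longest and deepest of all 9 lists. It found 97.8% of shared sites under 10 kb and 89.1% of those over 200 kb, while both 542 HOXA13 lists found at least 98.6% of each. Within the shared distal sites its share was close to even over distance, from 91.0% (25 to 50 kb) to 91.9% (10 to 25 kb), but it rose with rank from 84.2% in the lowest of the 4 rank groups to 97.4% in the highest. In the lowest group the HOXA13 lists still had 97.0% and 95.7%. With a single HOXD13 library of this line, labelled with an earlier stage, antibody, stage and library cannot be told apart. Counted only where the 542 fold enrichment was at least 5, the shares were 70.4% for HOXD13 and 87.0% for HOXA13 (mean of 2 libraries).

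Both 542 HOXA13 lists but not the HOXD13 list held 486 of the 6617 shared distal sites compared. The same held for 8489 of all 132371 merged wt sites and 567 of 4898 distal sites in 5 wt lists. It held for 173 of 1821 shared sites over 200 kb and 88 of 4868 under 10 kb, so it is not particular to the shared distal sites. The 486 sites were lower in wt too, with a median fold enrichment of 6.99, 5.39 and 3.99 in wt HOXA13 replicates 1 to 3 and of 4.10, 5.27 and 3.88 in wt HOXD13. They held the consensus in 12.6% ± 2.06 (SD, n = 6) of summit windows, against 17.0% ± 3.02 for those in the 542 HOXD13 list. Genes with several such sites, singled out after the values were seen, were Etv6 (3 of 3), Serp2 and Slc26a7 (3 of 4 each), Serpine2 (3 of 5), the hedgehog genes Disp1 and Gli3 (3 of 6 each) and Msrb3 (3 of 7). At Gli3 the highest-ranked site, 137 kb upstream at chr13:15325349-15326496, had 12.2, 8.0 and 6.25 with HOXA13 and 4.88, 7.09 and 4.25 with HOXD13 in wt, and 6.001 and 5.36 in 542 HOXA13. The Cyp26a1 site at chr19:37850863-37852371, near a gene for a retinoic acid-degrading enzyme, had 9.31, 6.47 and 6.67 with HOXA13 and 9.17, 10.4 and 5.39 with HOXD13 in wt, and 6.77 and 7.21 in 542 HOXA13.

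Of the 35 sites in no 542 list, the 5 highest-ranked lay near Lyplal1, Wwp2, Calml3, Med30 and Sema3e. The site near Lyplal1, chr1:186053021-186054303, had 7.73, 4.98 and 6.35 with HOXA13 and 3.51, 5.33 and 6.94 with HOXD13. The site in an intron of Wwp2, a ubiquitin ligase gene, had 6.14, 3.54 and 6.01 with HOXA13 and 3.71, 5.70 and 5.81 with HOXD13. At all 5 the fold enrichment stayed below 8.00 in every wt library, and the antibodies overlapped. The median percentile of the 35 was 52.2.

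The last comparison asked whether the antibodies differed in height at these sites. Membership asks for all 6 lists alike and does not use this contrast, but a call depends on the height in each library. Sites called with 1 antibody only were left out beforehand. The lists also differ in length, from 23939 intervals in wt HOXD13 replicate 1 to 86941 in wt HOXA13 replicate 1. The comparison therefore covers only sites that passed with both antibodies. Log2 fold enrichment was compared over all 13916 sites in 6 lists after quantile normalization (limma with Benjamini-Hochberg adjustment). No shared distal site passed an adjusted p of 0.05, and 1 site of all (0.00719%) did. The smallest adjusted p of a shared distal site was 0.113. At an unadjusted p under 0.05 there were 656 (9.52%), of which 476 were higher with HOXA13 and 180 with HOXD13, against 12.7% of all sites. In simulated libraries with the spread of these, the same step called 30 of 100 sites changed by 1 on the log2 scale and 88 of 100 changed by 2. That spread was drawn independently for each site and library. Deviations shared between libraries were not simulated, so these shares may not hold for the data.

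Both replicates 3 stood apart within their antibody, with correlations of log2 fold enrichment over the shared distal sites of 0.495 and 0.497 to the other HOXA13 libraries, where those reached 0.875 with each other. For HOXD13 they were 0.427 and 0.416, where the others reached 0.663. Across the antibodies, both replicates 3 reached 0.619 with each other, above their values within antibody. HOXD13 replicate 2 reached 0.725 with HOXA13 replicate 1, above its 0.663 with HOXD13 replicate 1. HOXA13 replicates 1 and 2 and HOXD13 replicate 1 had their highest value within their antibody. The libraries thus did not group by antibody alone. These correlations are across sites within pairs of libraries and are a description. With both replicates 3 as a batch term, a fit chosen after the data were seen, 150 shared distal sites were higher with HOXA13 and 56 with HOXD13 (limma, adjusted p under 0.05). This is 2.18% and 0.813% of them, against 1.93% and 2.92% of all sites. Shared sites under 10 kb went the other way, with 36 higher with HOXA13 and 343 with HOXD13, while those over 200 kb had 82 and 7. Without the batch term the median log2 difference of HOXA13 minus HOXD13 was 0.09 over shared distal sites and −0.18 over shared sites under 10 kb.

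The antibody groups did not overlap in normalized fold enrichment at 1146 shared distal sites. HOXA13 was higher at 810 (11.8%, against 9.23% of all sites) and HOXD13 at 336 (4.88%, against 10.1% of all sites). The balance depended on the scaling: it was 761 to 367 with median centring (all sites 1221 to 1527) and 860 to 25 without normalization (all sites 1389 to 145), which moves the median log2 difference over all sites from 0.01 to 0.31. The 542 libraries, used neither for membership nor for this split, leaned the same way in HOXA13 minus HOXD13 after median centring. Their HOXD13 side was 1 library, labelled E11.5, so antibody, stage and library cannot be told apart here. Only sites called in all 3 of the 542 lists were counted. HOXA13 was higher in 542 at 78.4% of 749 sites where it was higher in wt, at 37.9% of 269 where HOXD13 was higher in wt, and at 66.9% of all 6007 shared distal sites measured in all 3 lists, against 53.8% of all sites in 6 wt lists.

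Among the 1146 shared distal sites whose normalized antibody groups did not overlap, those with the greatest log2 differences were picked after their values were seen. The same values chose these sites, so their differences, SE and adjusted p are a description. With HOXD13 higher, the site 13.8 kb from Cct8l1 at chr5:25529293-25530349 had a deposited fold enrichment of 7.16, 5.45 and 4.32 with HOXA13 and of 11.1, 13.7 and 6.83 with HOXD13. Its normalized log2 difference was −1.18 ± 0.193 (SE, limma adjusted p = 0.113, and 0.00312 with the batch term). In 542 it had 8.14 and 8.33 with HOXA13 and 16.8 with HOXD13. The sites near Mtmr12, Tob1, Fzd2, which encodes a Wnt receptor, and Tle3, which encodes a corepressor, differed by −1.06, −1.05, −1.03 and −1.02, with adjusted p from 0.113 to 0.154 in limma without the batch term.

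With HOXA13 higher, the site 19.2 kb from 2610008E11Rik at chr10:79116202-79117302 had 13.2, 10.2 and 6.68 with HOXA13 and 2.71, 7.29 and 2.72 with HOXD13 (log2 difference 1.18 ± 0.288, SE, limma adjusted p = 0.163, and 0.0202 with the batch term). Next came the site 170 kb from Ipo8 at chr6:148660630-148661696, with 7.73, 7.35 and 5.51 with HOXA13 and 2.93, 2.97 and 2.65 with HOXD13. Its log2 difference was 1.02 ± 0.216 (SE, limma adjusted p = 0.143, and 0.0133 with the batch term). In 542 it had 9.97 and 11.9 with HOXA13 and 8.14 with HOXD13. The nearer of the Sox9 sites, 183 kb from the gene at chr11:112598455-112599501, had 14.9, 10.4 and 4.29 with HOXA13 and 2.93, 5.26 and 3.12 with HOXD13, a log2 difference of 1.0 ± 0.271 (SE, adjusted p = 0.188 in limma and 0.0230 with the batch term). In 542 the Sox9 site had 14.8 and 16.8 with HOXA13 and 13.4 with HOXD13. The deposited values overlapped at the Cct8l1, 2610008E11Rik and Sox9 sites, where the groups were apart only after normalization. At the Ipo8 site they were apart in the deposited values too.

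The height of shared distal sites relative to shared sites under 10 kb was then set side by side for each library. The median fold enrichment was 8.73 against 7.46, 6.81 against 5.57 and 4.56 against 4.27 in wt HOXA13 replicates 1 to 3. In wt HOXD13 it was 4.49 against 4.61, 6.20 against 7.13 and 4.12 against 4.24. Distal sites were thus the higher ones in every HOXA13 library and the lower ones in every HOXD13 library. Shared sites over 200 kb showed the same against those under 10 kb, with log2 ratios of 0.32, 0.41 and 0.11 in wt HOXA13 and −0.10, −0.23 and −0.06 in wt HOXD13, so this is not particular to sites at 10 to 200 kb. For the shared distal sites the log2 ratio was 0.20 ± 0.0991 (SD, n = 3) for wt HOXA13 and −0.09 ± 0.0927 (SD, n = 3) for wt HOXD13, which is 0.30 apart (two-sided exact permutation test, p = 0.1, the smallest that 3 against 3 allows). Within replicates 1 and 2 alone it was 0.38, and the pair of replicates 3 stood at 0.10 and −0.04. The 542 libraries gave 0.18 and 0.23 for HOXA13 and −0.15 for HOXD13, and over all 9 libraries the difference was 0.31 (exact permutation p = 0.0159, the smallest that 5 against 4 allows). That permutation mixed wt with 542 libraries and ignored line and stage. The only 542 HOXD13 library is labelled E11.5, and the 6 wt lists had chosen the sites, so this p cannot isolate the antibody. The comparison was added after the values were seen. GC content also differed between these sets of sites, 41.4% against 55.2%, and its part in the result was not tested.

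**Figure D5:**
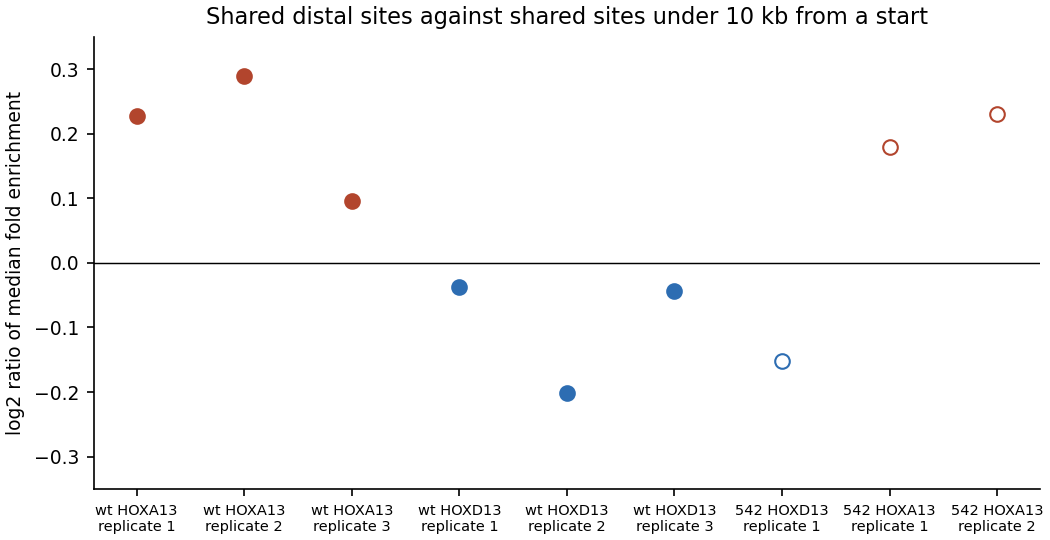
Log2 ratio of the median fold enrichment of shared distal sites to that of shared sites under 10 kb from a start (y axis) in each of 9 libraries (x axis), HOXA13 in red and HOXD13 in blue, filled for wt and open for 542. The 5 HOXA13 libraries lie above 0, from 0.10 to 0.29, and the 4 HOXD13 libraries lie below, from −0.20 to −0.04.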

How the data were processed

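According to the study's methods and the labels, adapters were trimmed with cutadapt, read pairs mapped with Bowtie on mm10 (wt) or on the mutant genome (542), filtered with SAMtools, and peaks called per library with MACS2 and no control library. In the deposited lists, fold enrichment is the ratio of the reads piled up at a summit to the local background. The authors' −log10 p-values and −log10 q-values come from a Poisson test of that pileup, and the deposited score is made from the −log10 q-value and was not used here.

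Intervals were merged across the 6 wt lists, and the summit with the highest −log10 p in a site was its main summit. Pileups solved from the deposited fold enrichment and −log10 p came out whole (within 0.01) for at least 99.9% of values and gave the depth of each library. Start sites came from GENCODE basic vM21 and sequence from RefSeq, both on GRCm38, the assembly of mm10. Repeats are the lower-case bases of that sequence.

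Named were the 10 sites with the highest median percentile, the 12 genes nearest to most sites, up to 4 genes of each list, the 5 highest sites missed by all 542 lists, the 5 first groups and the sites at the bounds. No site met the rule for a difference between antibodies, and some listed genes are not reported here. Sites, gene lists and motifs were chosen with earlier results of these data known. Alternatives were other thresholds, start sites, overlaps, windows, consensus forms, scalings, filters, a replicate block and each library left out. The statistical steps were tested on simulated data. Replicates are separate pools of embryos.

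The tools were Python 3.11.15, numpy 2.4.6, pandas 2.3.3, scipy 1.17.1, matplotlib 3.10.9, R 4.3.3 and limma 3.58.1.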

Additional observations from a re-analysis of the deposited data

Results flagged for a closer look

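The log2 ratio of shared distal sites to shared sites under 10 kb differed between the antibodies by 0.30 in wt. What drew attention was that all 3 wt HOXA13 libraries lay above 0 and all 3 wt HOXD13 libraries below, and that the 2 HOXA13 libraries and the HOXD13 library of 542 fell on the same sides. The wt test cannot pass 0.05 (exact permutation p = 0.1). No explanation was tested.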

How the results depend on the processing

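The number of shared distal sites fell to 919 with a fold enrichment of at least 5 in every list and to 3583 with a −log10 q of at least 5, and calls in all of the other 5 lists gave 6877 to 9986, the highest without wt HOXD13 replicate 1. Recall in 542 HOXA13 was 91.9% with a reciprocal overlap of 50%, 90.4% with a summit within 100 bp and 87.0% with a fold enrichment of at least 5, and with 1 replicate left out 98.7% to 99.0%. In 542 HOXD13 these were 79.5%, 79.3% and 70.4%.

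The consensus stayed higher at shared distal summits in all 23 alternatives. With 1 library left out the difference to other distal summits was 6.04 to 6.85 percentage points and to flanks 13.6 to 15.2 (exact permutation p = 0.0625 each, the smallest that 5 libraries allow). With same-numbered pairs as a replicate block the values were 6.60 and 14.2 (exact permutation p = 0.25, the smallest 3 pairs allow).

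Counts of shared distal sites that differed between antibodies in limma were 1 without normalization and 3 with −log10 p, against 1 and 27 of all 13916 sites. With the replicate block there were 158 (2.29%), 115 higher with HOXA13 and 43 with HOXD13, against 209 and 323 of all sites. With both replicates 3 as a batch term there were 206 (2.99%), 150 and 56 by antibody, against 268 and 407 of all sites. There were 0 with each library left out. Same-numbered wt libraries deviated together from their antibody means with correlations of 0.0707, 0.237 and 0.513, while HOXA13 replicate 1 with HOXD13 replicate 2 reached 0.451. By this measure, log2 fold enrichment over sites in 6 lists, 1 value is under 0.1, so the numbers were not taken to pair the samples. Whether they do is not given in the labels, and the block moves the count of called sites as above. The difference between antibodies in the log2 ratio of distal to near sites, 0.30 with the replicate block too, was 0.25 to 0.35 with 1 library left out, and with the 542 libraries 0.31. No control library and 3 wt libraries per antibody limit all of these values.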
